A study of Mus musculus with 30 samples.

Results

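The comparison was of untreated CGR8, a mouse embryonic stem cell line, with untreated NIH/3T3, a mouse fibroblast line. Its members were the 3 libraries of each line at 0 h, 6 of the 30 libraries of the series, and every gene that passed a filter on low counts entered the test (15401 of 57186 identifiers). The series followed both lines through 0, 1, 2, 5 and 48 h of cycloheximide, an inhibitor of translation elongation, at 0.1 µg/mL. The titles give 0 h for these 6 libraries, while the treatment field carries the drug for every sample, so "untreated" rests on the titles. Both lines carried the ROSA26 SLT knock-in. NIH/3T3 grew in DMEM with fetal bovine serum, and CGR8 in N2B27 with 2i/LIF, so line, culture medium and mouse strain of origin cannot be told apart in any difference below. The labels do not say that replicates A, B and C were separate cultures, and the p-values then measure only the spread between these samples, which may be technical. Libraries were made with a stranded mRNA kit, and the deposited gene counts summed to 20169567, 23392363 and 30503109 in NIH/3T3 and to 29851137, 25541895 and 23280190 in CGR8 for replicates A, B and C. Where 3 values of a gene are given for a line, they are in that order and are CPM, read counts scaled to a common library size with edgeR's TMM factors.

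Embryonic stem cells renew themselves while keeping the capacity to form every tissue of the embryo. In 2i/LIF, 2i denotes inhibitors of MEK and of GSK3, and LIF is a cytokine that signals through STAT3; together they hold mouse cells in the naive state, which resembles the epiblast before implantation and is run by a network around Oct4 (Pou5f1), Sox2 and Nanog. Fibroblasts are mesenchymal cells that secrete the collagen-rich extracellular matrix, pull on it through integrins and actin stress fibres, and divide in response to serum growth factors. NIH/3T3 is an immortalised line from mouse embryo that has long been used to study growth control.

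The first principal component of the 6 libraries separated the lines and held 98.0% of the variance. CGR8 replicate B stood apart from its group. Its counts differed from those of replicates A and C by a chi-square per degree of freedom of 32.4 and 32.5, against 3.26 between A and C and 6.92 to 13.9 among the NIH/3T3 libraries, so no library was a copy of another. Of 6869 tested genes with a CGR8 mean of at least 20 CPM, 48 were lower in B than the mean of A and C by more than 1 on the log2 scale and 2 were higher, and its deviation correlated with log2 gene length across genes (r = -0.49, a description, since genes are not independent). Values without this library are given below for the counts of genes that differed between the lines, for Sycp1 and for Eno1. Of 662 genes named or listed, 7 gained and 5 lost a call of a difference without it, and 1 changed direction. The tallies of gene lists below are from all 6 libraries.

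With 3 libraries a line, 12638 of the 15401 tested genes (82.1%) differed between the lines at a Benjamini-Hochberg adjusted p under 0.05 in edgeR's quasi-likelihood test, and such genes are referred to as called. Of these, 6838 (44.4% of the tested genes) were higher in CGR8 and 5800 (37.7%) were higher in NIH/3T3. The counts given for each gene list below are to be read beside these shares. The median standard error of a log2 fold change was 0.14, and the median log2 fold change over all tested genes, CGR8 minus NIH/3T3, was 0.15. Since most genes were called, size separates them better: 8347 (54.2%) were called and at least 2-fold apart, 4490 (29.2%) towards CGR8 and 3857 (25.0%) towards NIH/3T3. A difference of at least 8-fold was found for 4102 genes (26.6%), of which 2455 (15.9%) were higher in CGR8 and 1647 (10.7%) in NIH/3T3. Without CGR8 replicate B the 3 counts were 13723, 8873 and 4402. The 6 libraries did not overlap between the lines for 12813 tested genes (83.2%). Over the whole time course, the 15 libraries of a line lay entirely above or below the 15 of the other for 7835 tested genes (50.9%), and for 3988 of the 4102 genes that were 8-fold apart at 0 h (97.2%).

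**Figure D1:**
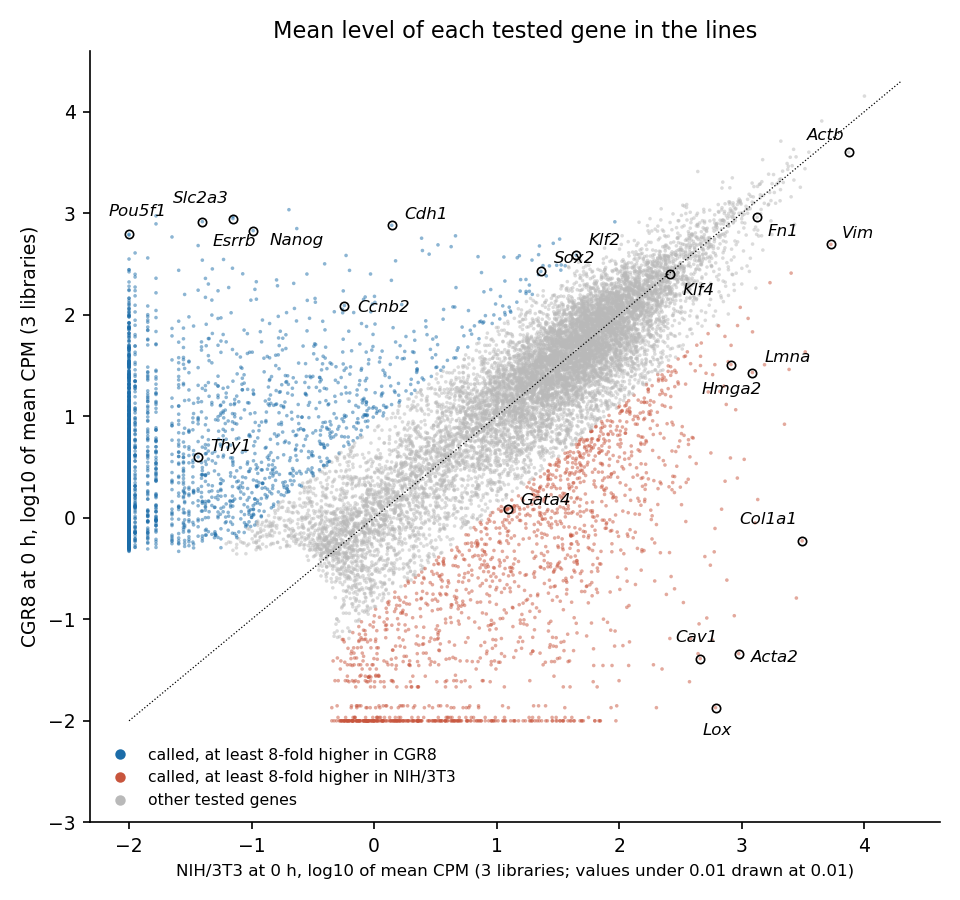
Mean CPM of each tested gene over the 3 NIH/3T3 libraries (x axis, log10 scale) against its mean over the 3 CGR8 libraries (y axis, log10 scale), with means under 0.01 drawn at 0.01; blue marks 2455 called genes at least 8-fold higher in CGR8, red 1647 at least 8-fold higher in NIH/3T3, and the dotted line equal levels. The column of blue points at the left edge and the row of red points at the bottom are genes with few or no counts in the other line, and Klf4 lies on the line of equal levels.

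Named genes other than pseudogenes, with no overlap between the lines, were ranked by fitted fold change. Provisional symbols, such as those of Gm or Rik type or accession style, were not counted as names. The first 10 towards CGR8 that averaged 50 CPM or more there were Pou5f1, L1td1, Sall4, Epop, Utf1, Kit, Zfp42, Bex1, Tdh and Triml2. They comprise transcription factors of the pluripotent state (Pou5f1, Sall4, Utf1, Zfp42), an RNA-binding protein of LINE-1 origin (L1td1), a Polycomb-associated protein (Epop), the receptor of stem cell factor (Kit) and the mitochondrial enzyme that splits threonine (Tdh). In the opposite direction they were Lox, Osr1, Acta2, Col1a2, Glipr1, Svep1, Gpr149, Prl2c2, Tspan11 and Tm4sf1, among them a collagen crosslinking enzyme (Lox), a transcription factor of intermediate mesoderm (Osr1), smooth muscle actin (Acta2) and a fibrillar collagen chain (Col1a2). Osr1 had 94.2, 86.95 and 101 CPM in NIH/3T3 and 0 counts in all 3 CGR8 libraries, which makes it at least 2499-fold higher in NIH/3T3. Here and below, a gene with 0 counts in one line is set against a floor of 3 counts summed over that line's 3 libraries. If tested, such a gene had passed the filter on low counts only through the other line, so its direction was fixed in advance.

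The pluripotency network separated the lines almost without exception. Of 17 naive factors, all tested, 16 were called, all higher in CGR8, 14 of them by at least 8-fold; 7 had 0 counts in NIH/3T3, and the median log2 fold change with such genes at their bound was 11.23. Pou5f1, which encodes Oct4, had 612, 670.3 and 579 CPM in CGR8 and 0 counts in every NIH/3T3 library, a difference of at least 15144-fold. Nanog, its homeodomain partner, had 704, 630.2 and 683 CPM in CGR8 and 0.199, 0.0426 and 0.0673 CPM in NIH/3T3 (log2 fold change 12.71, SE 0.20, edgeR BH-adjusted p 1.7e-11). Both factors were thus at or near the counting floor in every NIH/3T3 library.

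Esrrb, an orphan nuclear receptor of the naive network, had 882, 888 and 884 CPM in CGR8 and 0.0498, 0.128 and 0.0336 CPM in NIH/3T3. Zfp42 (Rex1), the usual reporter gene of the naive state, had 939, 911 and 973 CPM in CGR8 and a single count in NIH/3T3, a ratio of 68897 (12365 to 2.72e+06). Tfcp2l1, a target of LIF signalling, was 12.33 higher on the log2 scale. Here and below, intervals are 95% and cover counting error only, as do the floors.

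Some factors that are also used to reprogram fibroblasts were already transcribed in NIH/3T3. Sox2 had 24.9, 22.00 and 21.9 CPM in NIH/3T3 and 283, 251 and 266 CPM in CGR8, a log2 fold change of 3.54 (SE 0.09). Among the Krüppel-like factors, Klf2 was 3.12 and Klf5 2.16 higher in CGR8 on the log2 scale. Klf4 was the single naive factor that was not called: it had 277, 233 and 267 CPM in NIH/3T3 and 253, 243 and 252 CPM in CGR8, and the lines overlapped (log2 fold change -0.05, SE 0.09, edgeR BH-adjusted p 0.56).

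**Figure D2:**
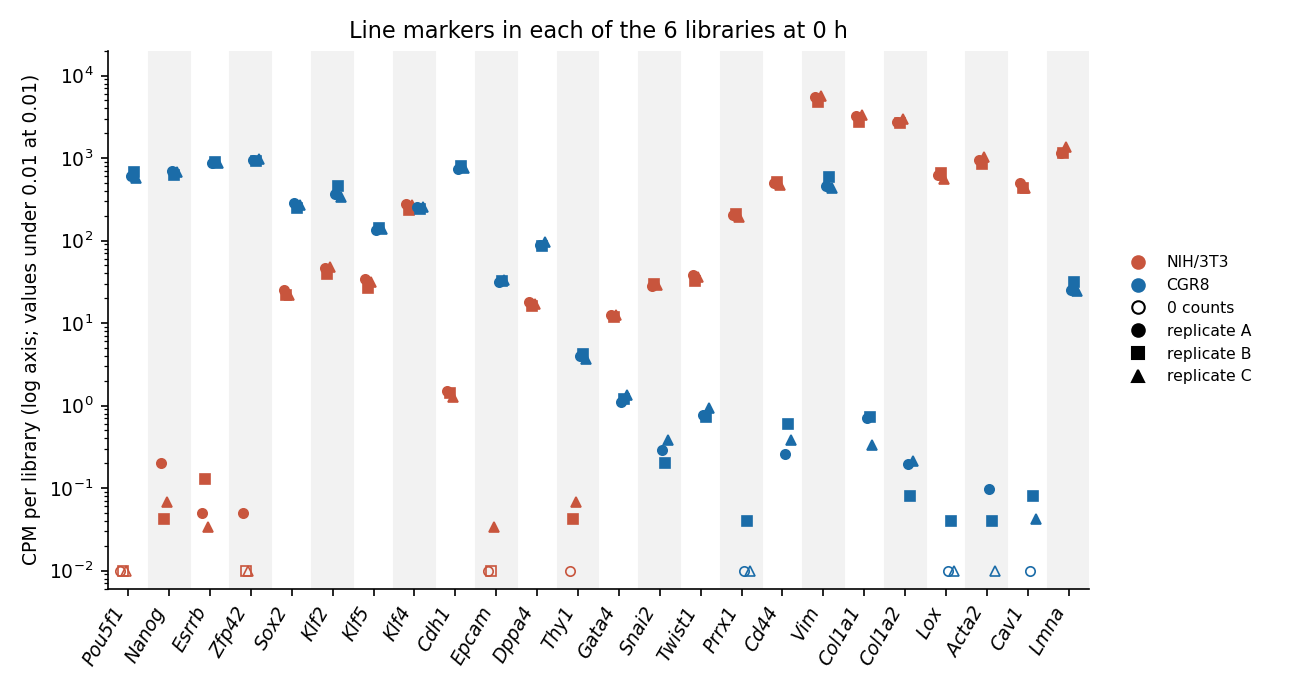
CPM of line markers in each of the 6 libraries at 0 h (log axis, values under 0.01 drawn at 0.01, open symbols for 0 counts); red is NIH/3T3, blue is CGR8, and circles, squares and triangles are replicates A, B and C. The stem cell genes at the left are high in all 3 CGR8 libraries, the matrix and contractile genes at the right in all 3 NIH/3T3 libraries, Klf4 overlaps, and the fibroblast marker Thy1 is higher in CGR8.

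All 18 other stem cell markers were called and higher in CGR8, 17 of them by at least 8-fold. Lin28a, an RNA-binding protein that blocks let-7 maturation, averaged 479.8 ± 27.1 CPM in CGR8 and 0.0366 ± 0.03403 CPM in NIH/3T3 (here and below, mean ± SD over the line's 3 libraries). Fgf4, the ligand through which stem cells drive their own ERK signalling, averaged 235 ± 9.97 CPM against 1 count in all of NIH/3T3, a ratio of 17225 (3091 to 6.80e+05). The exception below 8-fold was Dppa4, a chromatin-bound regulator of early embryonic genes, at 90.4 ± 4.43 CPM in CGR8 and 17.2 ± 0.898 CPM in NIH/3T3.

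Of 14 genes of the primed epiblast and early germ layers, 11 passed the filter and all 11 were called higher in CGR8. However, 10 of the 14 had 0 counts in NIH/3T3. Those of the 10 that were tested passed the filter only through CGR8, so their direction was fixed in advance. The summed level of the 14 ran from 174 to 192 CPM in CGR8, of which Nodal, a TGF-beta ligand made by naive and primed cells alike, gave 60.01, 68.9 and 56.5 CPM. Otx2, which drives exit from the naive state, averaged 7.12 ± 0.648 CPM, the mesoderm factor T averaged 3.48 ± 0.202 CPM, and the primed marker Fgf5 averaged 0.242 ± 0.145 CPM and was not tested. Because these are bulk libraries, fewer cells of a type and less RNA per cell cannot be told apart.

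Of 14 extraembryonic and neural genes 7 were tested; 5 were higher in CGR8 and 2 in NIH/3T3. Gata4, a factor of primitive endoderm and heart, had 12.6, 11.8 and 12.6 CPM in NIH/3T3 and 1.101, 1.21 and 1.35 CPM in CGR8, with no overlap between the lines. The other gene higher in NIH/3T3 was Nes, an intermediate filament gene of neural progenitors, with 30.4, 28.8 and 31.4 CPM in NIH/3T3 and 11.98, 11.6 and 13.5 CPM in CGR8. Tubb3, the neuronal beta-tubulin, averaged 122 ± 22.3 CPM in CGR8 against 0.0142 ± 0.0246 in NIH/3T3, whereas the neural factors Sox1 and Pax6 averaged 3.41 ± 0.462 and 2.46 ± 0.583 CPM in CGR8. Of 12 blood, endothelial and muscle markers 6 were tested; 4 were higher in CGR8 and 2 in NIH/3T3. The 2 were the endothelial cadherin gene Cdh5, which averaged 2.07 ± 0.0646 CPM in NIH/3T3 and gave 2 counts in the 3 CGR8 libraries, and the muscle filament gene Des, with a log2 fold change of -0.62, an adjusted p of 0.03 by edgeR's quasi-likelihood test. The call of Des was lost with a replicate block (adjusted p = 0.054) and without replicate A or C of either line (adjusted p from 0.0561 to 0.149). The leukocyte gene Ptprc gave 1 count in the 6 libraries, and Pecam1, an adhesion molecule of endothelium and of mouse stem cells, was 8.52 higher in CGR8 on the log2 scale.

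Collagen genes had the lowest median of the 34 lists, far towards NIH/3T3. Of 23 collagen genes 20 were tested, and 19 were called higher in NIH/3T3, 17 of them by at least 8-fold, with a median log2 fold change of -9.98 against 0.15 over all tested genes. Col1a1 and Col1a2, the chains of type I collagen, had 3250.5, 2724 and 3347 CPM and 2731, 2694 and 2936 CPM in NIH/3T3. In CGR8 the same genes had 0.712, 0.727 and 0.337 CPM and 0.194, 0.0808 and 0.211 CPM, and their log2 fold changes were -12.32 (SE 0.22) and -14.01 (SE 0.19). Col18a1, a basement membrane collagen, went the other way, with 9.51, 12.8 and 12.8 CPM in NIH/3T3 and 102, 104 and 92.4 CPM in CGR8.

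Of 25 tested other matrix proteins, 18 were higher in NIH/3T3, 5 in CGR8 and 2 were not called. Tenascin C (Tnc) and thrombospondin 1 (Thbs1) led those of NIH/3T3, with log2 fold changes of -9.71 and -8.94. Fbln1, Lama1, Lama5 and Nid2 were higher in CGR8, and the laminin chains Lama1 and Lama5 averaged 51.5 ± 4.97 and 142 ± 35.02 CPM there against 0.0166 ± 0.0288 and 0.8198 ± 0.243 CPM in NIH/3T3. Fibronectin (Fn1), often taken as a fibroblast product, averaged 1334 ± 59.3 CPM in NIH/3T3 and 909 ± 49.1 CPM in CGR8, a log2 fold change of -0.55.

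The list of matrix enzymes and inhibitors holds crosslinking enzymes, chaperones, proteases and their inhibitors. Of 24 tested, 21 were higher in NIH/3T3 and 3 in CGR8, with a median log2 fold change of -5.92. Lox, which crosslinks collagen and elastin, had 615, 657 and 559 CPM in NIH/3T3 and 0, 0.0404 and 0 CPM in CGR8, where it reached 1 count in 3 libraries. The collagen chaperone Serpinh1 averaged 1532 ± 109.8 CPM in NIH/3T3 and 32.2 ± 2.25 CPM in CGR8. Of 14 tested integrins, the cell's matrix receptors, 12 were higher in NIH/3T3, 2 of them by at least 8-fold. Among all tested genes the shares were 37.7% and 10.7%. The shared beta 1 chain Itgb1 differed by -2.32 on the log2 scale. Itga9 was the single integrin called higher in CGR8, at 34.2 ± 1.84 CPM in CGR8 against 0.0308 ± 0.0269 CPM in NIH/3T3.

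Of 25 tested epithelial genes, 24 were called higher in CGR8, 19 of them by at least 8-fold. E-cadherin (Cdh1), which joins stem cells into colonies, had 739, 793 and 748 CPM in CGR8 and 1.49, 1.41 and 1.28 CPM in NIH/3T3. N-cadherin (Cdh2), its mesenchymal counterpart, averaged 204 ± 13.7 CPM in NIH/3T3 and 8.14 ± 0.249 CPM in CGR8, a log2 fold change of -4.65. Grhl2, a transcription factor of epithelia, was the single epithelial gene higher in NIH/3T3, with a log2 fold change of -1.13.

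Of 23 tested mesenchymal genes, 18 were higher in NIH/3T3 and 5 in CGR8. Vimentin (Vim), the intermediate filament of mesenchyme, had 5488, 4839 and 5667 CPM in NIH/3T3 and 455, 593 and 432 CPM in CGR8; the lines did not overlap. The homeobox gene Prrx1 averaged 201 ± 8.21 CPM in NIH/3T3 against 1 count in CGR8, and the transcription factors Snai2 and Twist1, which repress epithelial genes, differed by -6.63 and -5.45 on the log2 scale. Several usual fibroblast markers were near 0 in NIH/3T3. Thy1 had 0, 0.0426 and 0.0673 CPM in NIH/3T3 and 4.05, 4.24 and 3.63 CPM in CGR8. Dcn and Postn averaged 0.3202 ± 0.0973 and 0.786 ± 0.08004 CPM in NIH/3T3, and Fap had no count in either line.

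Serum response factor (SRF) binds CArG boxes in the promoters of actins and their partners, and YAP with TEAD factors binds GGAATG-like sites at genes that respond to stretch and cell spreading. Of 24 tested SRF and contractile genes, 22 were higher in NIH/3T3, 10 of them by at least 8-fold, 1 was higher in CGR8 and 1 was not called. Smooth muscle actin (Acta2) had 944, 852 and 1035 CPM in NIH/3T3 and 0.0972, 0.0404 and 0 CPM in CGR8. Other classical smooth muscle genes were near 0 in both lines, with Tagln at 0.137 ± 0.01099 CPM and Cnn1 at 0.252 ± 0.0901 CPM in NIH/3T3. Beta-actin (Actb), the cytoplasmic form, differed by -0.90 on the log2 scale, at 7440.3 ± 666 CPM in NIH/3T3 and 3984 ± 377 CPM in CGR8.

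Of 21 YAP and TEAD genes, 17 were higher in NIH/3T3, 3 in CGR8 and 1 was not called, with a median of -1.98. Ccn1 and Ccn2, secreted matricellular targets, averaged 180.0 ± 21.4 and 77.4 ± 7.78 CPM in NIH/3T3 and 14.2 ± 1.57 and 13.04 ± 0.401 CPM in CGR8. Ankrd1 had 2.24, 2.09 and 2.56 CPM in NIH/3T3 and 0 counts in CGR8, so it was at least 61.4-fold higher in NIH/3T3. The receptor kinase Axl had 806, 788 and 829 CPM in NIH/3T3 and 3.63, 4.69 and 3.33 CPM in CGR8. Transcripts of the coactivators themselves went in opposite directions: the log2 fold change was 0.35 for Yap1 and -1.59 for Wwtr1 (TAZ).

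The promoters of these 2 lists carried their motifs more often than other promoters. In RefSeq sequence of 250 bases before to 50 after each start site (build GRCm38.p6), searched on both strands, GGAATG stood in 15 of 23 promoters (65.2%) of the 18 YAP and TEAD genes that had an entry, against 12.5% of the 13646 promoters of tested genes and 14.7% of all 32851. A CArG box stood in 7 of 31 promoters (22.6%) of 25 SRF and contractile genes, against 1.30% of the promoters of tested genes and 1.63% of all. The lists were chosen from prior knowledge and hold known targets beside regulators such as Yap1, Lats2, Srf and Mrtfa. A higher share of motifs in lists that include known targets is no independent result, and a match is not evidence of binding. GGAATG stood in 11 of the 31 SRF and contractile promoters (35.5%), against 12.5% of the promoters of tested genes. The motifs were counted separately, and the Vcl promoter held both, of which only the CArG box is in capitals below. Shown here, 5' to 3' on the gene's strand with the match in capitals, are 3 promoters with GGAATG, those of Ankrd1 (chr19:36119795-36120094, minus strand, 2 matches), Axl (chr7:25788684-25788983, minus strand) and Ccn1 (chr3:145649936-145650235, minus strand, where the match is on the opposite strand and reads CATTCC), and 2 with a CArG box, those of Myl9 (chr2:156775214-156775513, plus strand) and Vcl (chr14:20929148-20929447, plus strand).
Ankrd1: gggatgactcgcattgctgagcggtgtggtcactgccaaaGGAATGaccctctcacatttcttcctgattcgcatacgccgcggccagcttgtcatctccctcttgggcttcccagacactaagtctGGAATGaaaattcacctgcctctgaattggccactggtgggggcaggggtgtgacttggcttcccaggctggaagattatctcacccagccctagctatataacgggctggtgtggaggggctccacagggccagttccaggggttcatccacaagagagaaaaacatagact
Axl: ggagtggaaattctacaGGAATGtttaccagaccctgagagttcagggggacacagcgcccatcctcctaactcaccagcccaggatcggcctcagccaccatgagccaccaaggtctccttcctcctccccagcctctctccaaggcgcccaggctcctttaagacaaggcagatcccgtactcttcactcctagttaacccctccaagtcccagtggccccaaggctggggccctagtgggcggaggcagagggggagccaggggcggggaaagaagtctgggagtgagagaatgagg
Ccn1: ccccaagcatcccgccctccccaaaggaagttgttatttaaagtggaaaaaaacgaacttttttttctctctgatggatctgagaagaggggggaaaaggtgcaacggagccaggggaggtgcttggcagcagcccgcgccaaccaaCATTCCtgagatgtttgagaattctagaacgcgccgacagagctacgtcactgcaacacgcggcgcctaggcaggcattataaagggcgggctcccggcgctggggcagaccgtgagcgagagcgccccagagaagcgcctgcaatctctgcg
Myl9: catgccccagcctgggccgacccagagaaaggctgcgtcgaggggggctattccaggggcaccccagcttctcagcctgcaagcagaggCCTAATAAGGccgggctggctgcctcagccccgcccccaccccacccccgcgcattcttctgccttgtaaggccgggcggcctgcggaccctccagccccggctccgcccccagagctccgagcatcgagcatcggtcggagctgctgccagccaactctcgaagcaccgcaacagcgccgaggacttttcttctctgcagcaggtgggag
Vcl: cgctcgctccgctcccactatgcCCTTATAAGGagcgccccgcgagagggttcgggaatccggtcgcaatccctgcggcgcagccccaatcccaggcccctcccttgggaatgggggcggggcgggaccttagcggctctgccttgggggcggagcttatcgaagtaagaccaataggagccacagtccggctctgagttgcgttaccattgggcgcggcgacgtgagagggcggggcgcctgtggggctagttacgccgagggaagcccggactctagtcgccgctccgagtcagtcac
The first base of the match lay at -210 and -123 from the start site in Ankrd1, -233 in Axl and -103 in Ccn1, and at -161 in Myl9 and -227 in Vcl. All 5 genes shown were higher in NIH/3T3. Their log2 fold changes were -7.70 for Axl, -3.66 for Ccn1, -8.16 for Myl9 (a myosin light chain) and -1.02 for Vcl (vinculin, of focal adhesions). Not every gene with a match was: Ajuba and Yap1, whose promoters also held GGAATG, had log2 fold changes of 2.05 and 0.35.

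The nuclear lamina is a filament network under the nuclear envelope. Of 11 lamina genes, 4 were higher in CGR8, 3 in NIH/3T3 and 4 were not called, beside 82.1% of all tested genes called. A-type lamin (Lmna) had 1153, 1160.3 and 1345 CPM in NIH/3T3 and 25.1, 31.5 and 24.2 CPM in CGR8, a log2 fold change of -5.50. Lamin B1 (Lmnb1) was 1.60 and the lamin B receptor (Lbr) 1.39 higher in CGR8, on the log2 scale, while Sun2, which links the lamina to the cytoskeleton, had a log2 fold change of -3.79.

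**Figure D3:**
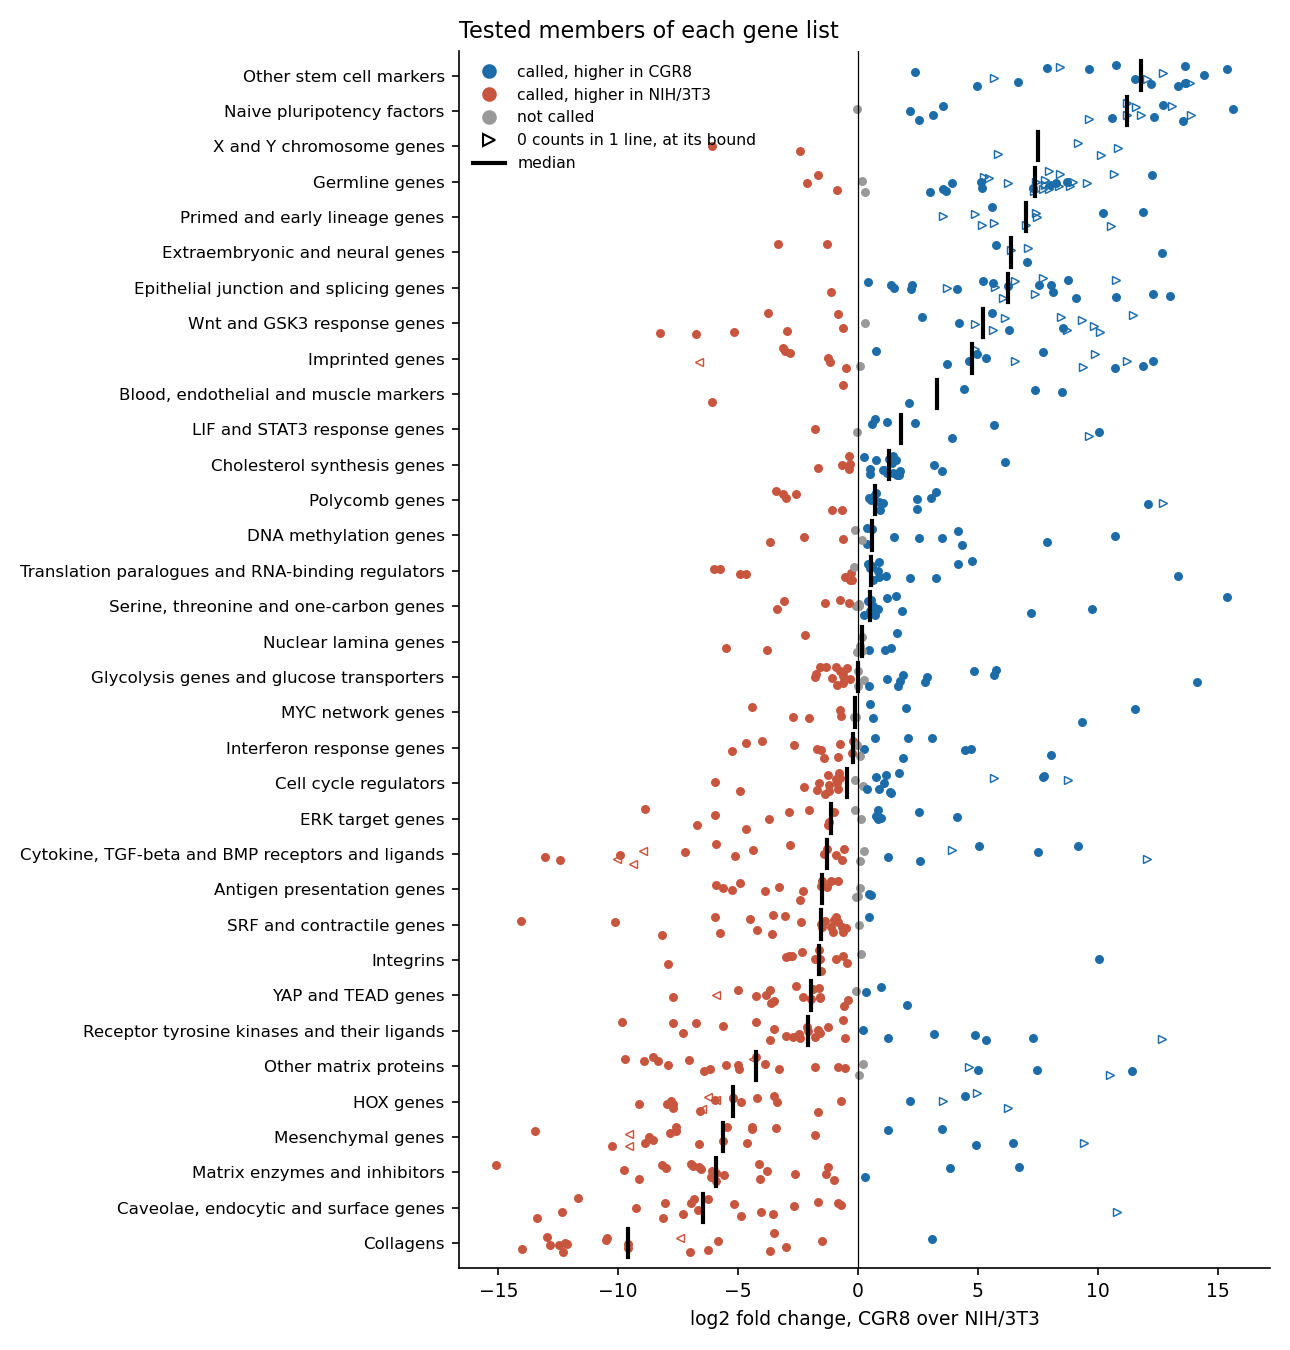
Log2 fold change, CGR8 over NIH/3T3 at 0 h, of every tested member of each gene list (x axis), with lists on the y axis ordered by their median, drawn as a black bar; blue and red points were called higher in CGR8 and in NIH/3T3, grey points were not called, and open triangles are genes with 0 counts in one line, drawn at their bound. Stem cell, germline and epithelial lists lie to the right, collagens and caveolar and surface genes to the left, and metabolic and cell cycle lists on both sides of 0.

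Of 27 tested receptor tyrosine kinases and ligands, 20 were higher in NIH/3T3 and 7 in CGR8. The PDGF receptors Pdgfra and Pdgfrb averaged 31.8 ± 0.996 and 25.7 ± 1.31 CPM in NIH/3T3 and 0.643 ± 0.0344 and 2.04 ± 0.0994 CPM in CGR8, whereas their ligand gene Pdgfa was 1.27 higher in CGR8 on the log2 scale. Kit and its ligand were on opposite sides. Kit had 281, 242 and 270.3 CPM in CGR8 and 0 counts in NIH/3T3, at least 6489.6-fold higher. Kitl had 338, 419.7 and 298 CPM in NIH/3T3 and 2.04, 1.82 and 2.82 CPM in CGR8.

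The cytokine, TGF-beta and BMP list was mixed, with 16 of 25 tested genes higher in NIH/3T3, 7 in CGR8 and 2 not called. The shares of all tested genes were 37.7% higher in NIH/3T3 and 44.4% in CGR8. The LIF receptor gene Lifr averaged 87.1 ± 15.5 CPM in CGR8 and 2.64 ± 0.228 CPM in NIH/3T3, and its co-receptor Il6st 116 ± 6.74 and 186 ± 18.9 CPM. Il1rl1, the IL-33 receptor, and Csf1, the macrophage growth factor, averaged 573 ± 34.2 and 265 ± 18.9 CPM in NIH/3T3 and 0.0626 ± 0.0194 and 0.264 ± 0.0976 CPM in CGR8. Bmp4, which can stand in for serum in stem cell culture, averaged 81.9 ± 6.39 CPM in CGR8 against 0.1403 ± 0.0357 CPM in NIH/3T3. Of 10 LIF and STAT3 response genes, 8 were higher in CGR8, 1 in NIH/3T3 (Junb, log2 fold change -1.78) and 1 was not called (Klf4). Socs3, the feedback inhibitor of the pathway, averaged 107 ± 11.4 CPM in CGR8 and 46.4 ± 3.31 CPM in NIH/3T3.

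The pathways that 2i acts on were read through their target genes. Of 18 ERK target genes, 10 were higher in NIH/3T3, 6 in CGR8 and 2 were not called. The shares of all tested genes were 37.7% higher in NIH/3T3 and 44.4% in CGR8. Egr1, an immediate-early gene, had 126, 108 and 121 CPM in NIH/3T3 and 1.13, 1.01 and 1.22 CPM in CGR8, and the AP-1 subunit Fosl1 and the ERK phosphatase Dusp4 differed by -8.90 and -3.73 on the log2 scale. The list did not move as one: the Ets factor Etv5 averaged 505 ± 0.8896 CPM in CGR8 and 28.9 ± 1.83 CPM in NIH/3T3, and the feedback inhibitor Spry4 was 2.56 higher in CGR8 on the log2 scale.

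Of 22 tested Wnt and GSK3 response genes, 14 were higher in CGR8, 7 in NIH/3T3 and 1 was not called, and 10 of the list's 24 had 0 counts in NIH/3T3. Axin2, the feedback target used as the standard readout of the pathway, had 82.8, 78.4 and 81.4 CPM in CGR8 and 1.095, 0.8103 and 1.14 CPM in NIH/3T3. Sp5 and Cdx1, direct targets, averaged 37.6 ± 4.36 and 44.6 ± 7.41 CPM in CGR8 and had 0 counts in NIH/3T3. The members higher in NIH/3T3 were led by the receptors Fzd1 and Fzd2, the non-canonical ligand Wnt5a and the inhibitor Apcdd1; Fzd1 differed by -8.27 and Wnt5a by -6.78 on the log2 scale.

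HOX genes record position along the body axis, and they were mostly transcribed in NIH/3T3. Of 39 HOX genes 24 were tested; 19 were higher in NIH/3T3 and 5 in CGR8, with a median log2 fold change of -5.22. Hoxb9 had 36.6, 36.03 and 36.7 CPM in NIH/3T3 and 1.52, 1.01 and 1.096 CPM in CGR8, and Hoxd8 had 26.5, 21.5 and 23.7 and 0.0648, 0 and 0.0422 CPM. The NIH/3T3 libraries thus carried genes of the 3' and middle parts of the HOXA cluster, the more posterior Hoxa10, and HOXB genes from Hoxb3 to Hoxb9. They also carried Hoxc5, Hoxc6 and Hoxc10 and the central HOXD genes. Hoxb1, Hoxb2 and Hoxb4 were too low to be tested. The 5 members higher in CGR8 were Hoxc4 and the posterior genes Hoxc11, Hoxc12, Hoxc13 and Hoxd13, and Hoxc13 averaged 5.19 ± 0.511 CPM in CGR8 against 0.233 ± 0.0566 in NIH/3T3. Several neighbours, such as Hoxa2 with Hoxa3 and Hoxd3 with Hoxd4, share an annotated transcript region, so the split of their counts is uncertain.

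**Figure D4:**
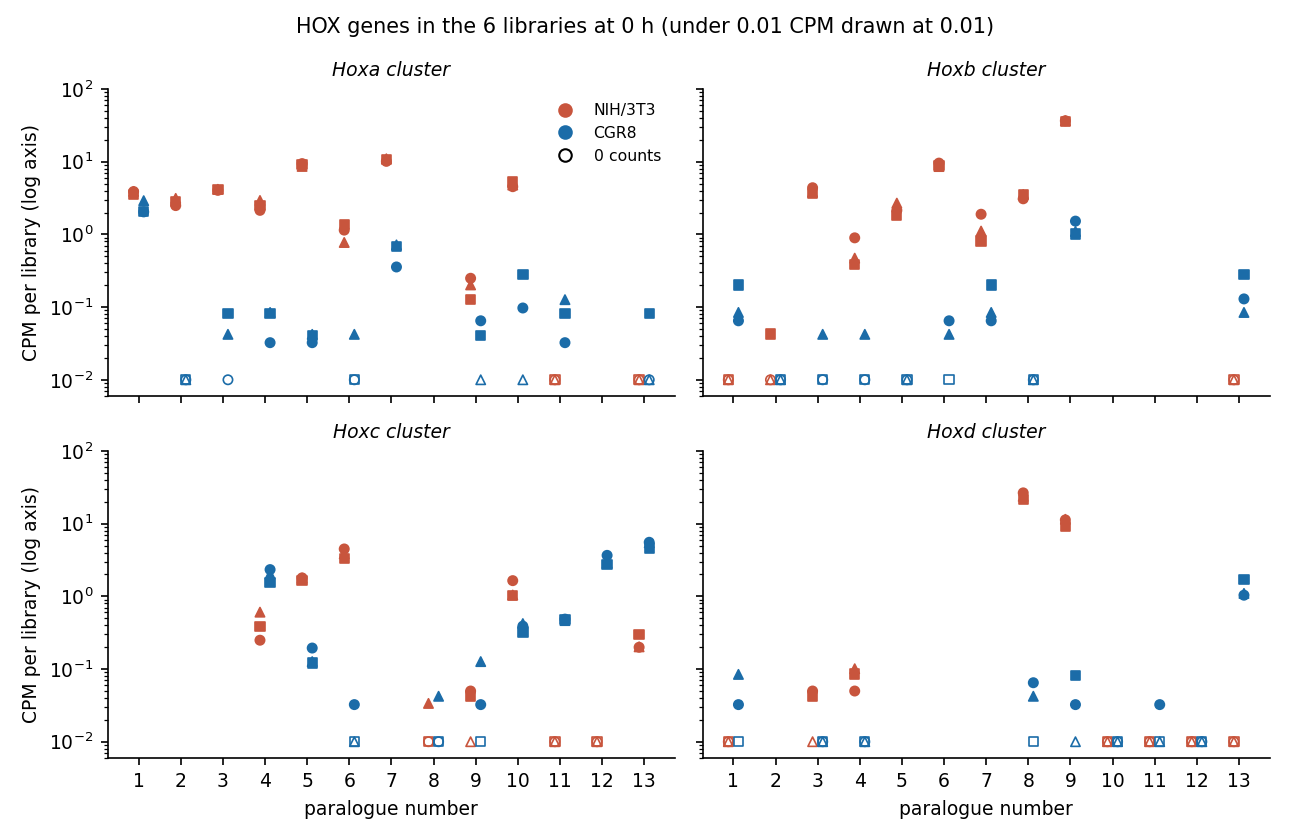
CPM of the 39 HOX genes in each of the 6 libraries (log axis, values under 0.01 drawn at 0.01), in 4 panels for the Hoxa, Hoxb, Hoxc and Hoxd clusters against paralogue number; red is NIH/3T3, blue is CGR8, and open symbols are 0 counts. NIH/3T3 is above CGR8 for most paralogues 2 to 10, and CGR8 is above NIH/3T3 for Hoxc11, Hoxc12, Hoxc13 and Hoxd13.

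Genes normally reserved for germ cells were mostly transcribed in CGR8 and at or near 0 counts in NIH/3T3. In somatic cells many of them are held off by DNA methylation at CpG-rich promoters. Promoters of this list often carried CACGTG, an E-box bound by MAX-containing dimers. It was found, on both strands, in 17 of 37 promoters (45.9%) of the 30 of 35 germline genes with a RefSeq entry, against 9.79% of the promoters of tested genes and 7.15% of all promoters; the match is a description and says nothing of binding. Shown with the match in capitals, 5' to 3' on the gene's strand, are the promoters of Ddx4 (chr13:112652261-112652560, minus strand, match at -29), Mael (chr1:166238695-166238994, minus strand, match at -223) and Slc25a31 (chr3:40708621-40708920, plus strand, match at -93), 3 genes used as readouts of germline gene silencing.
Ddx4: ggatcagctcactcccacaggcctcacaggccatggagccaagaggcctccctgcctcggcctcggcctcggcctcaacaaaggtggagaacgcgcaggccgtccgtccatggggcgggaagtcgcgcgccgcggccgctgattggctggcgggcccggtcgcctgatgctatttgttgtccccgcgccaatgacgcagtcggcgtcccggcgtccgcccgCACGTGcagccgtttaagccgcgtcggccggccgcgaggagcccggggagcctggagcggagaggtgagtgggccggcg
Mael: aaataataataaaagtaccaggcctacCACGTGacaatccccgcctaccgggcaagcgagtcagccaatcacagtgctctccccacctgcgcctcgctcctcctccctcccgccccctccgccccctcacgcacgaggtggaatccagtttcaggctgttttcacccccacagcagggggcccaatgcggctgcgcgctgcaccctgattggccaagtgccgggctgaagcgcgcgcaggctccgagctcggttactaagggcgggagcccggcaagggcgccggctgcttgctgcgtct
Slc25a31: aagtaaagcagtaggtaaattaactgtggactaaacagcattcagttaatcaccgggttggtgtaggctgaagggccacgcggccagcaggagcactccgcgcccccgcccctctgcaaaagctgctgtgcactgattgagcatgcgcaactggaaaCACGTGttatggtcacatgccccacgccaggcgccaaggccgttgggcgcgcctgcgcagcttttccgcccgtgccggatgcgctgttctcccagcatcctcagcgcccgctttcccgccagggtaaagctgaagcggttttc
Ddx4, the RNA helicase Vasa, had 18.5, 18.5 and 19.3 CPM in CGR8 and 0 counts in NIH/3T3, at least 458-fold higher. Mael, of the piRNA pathway, had 9.36, 11.1 and 9.91 CPM in CGR8, and Slc25a31, a testis ADP/ATP carrier, averaged 1.85 ± 0.405 CPM. Both had 0 counts in NIH/3T3 and were at least 246-fold and 44.3-fold higher in CGR8.

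Of 32 tested germline genes, 27 were higher in CGR8, 26 of them by at least 8-fold, 3 were higher in NIH/3T3 and 2 were not called. In all, 17 of the 35 had 0 counts in the 3 NIH/3T3 libraries. Those of the 17 that were tested passed the filter only through CGR8, so their direction was fixed in advance. Dazl, an RNA-binding protein that licenses germ cell development, had 14.9, 10.99 and 14.6 CPM in CGR8, and the meiotic cohesin subunit Stag3 had 75.1, 46.6 and 76.7 CPM. Replicate B was lowest for both. Sycp1, a synaptonemal complex protein, had 3.34, 0.687 and 2.99 CPM in CGR8 against 2.14, 1.92 and 1.75 CPM in NIH/3T3 and was not called, but was called higher in CGR8 without replicate B, at a log2 fold change of 0.70. Tex19.1, which restrains retrotransposons and is known from stem cells and placenta, went against the list with 101, 101 and 114 CPM in NIH/3T3 and 54.02, 65.2 and 53.8 CPM in CGR8; Tex101 and Brdt were also higher in NIH/3T3, at no more than a few CPM. Their promoters were split, with a CACGTG match in Brdt and none in Tex19.1 or Tex101.

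**Figure D5:**
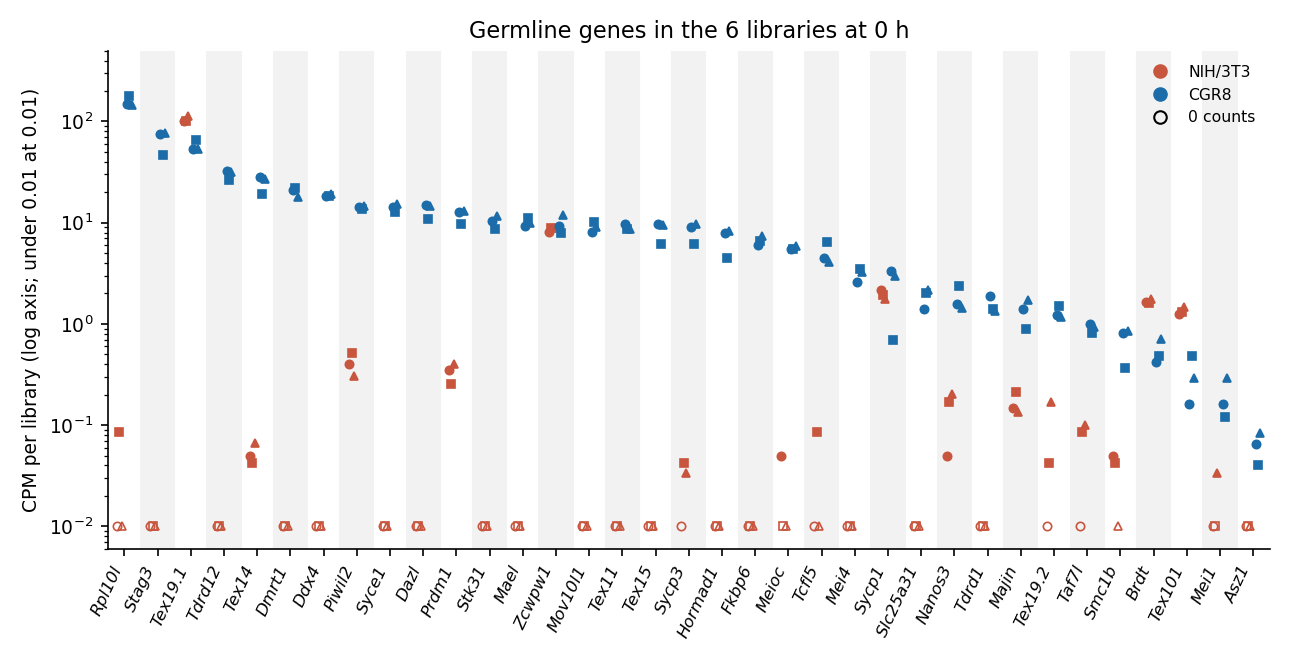
CPM of the 35 germline genes in each of the 6 libraries at 0 h (log axis, values under 0.01 drawn at 0.01), ordered by their mean in CGR8; red is NIH/3T3, blue is CGR8, open symbols are 0 counts, and circles, squares and triangles are replicates A, B and C. Most NIH/3T3 points lie at 0 counts, and Tex19.1, Brdt and Tex101 have all 3 NIH/3T3 points above the CGR8 points.

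DNA methylation is written, maintained and removed by separate enzymes. Of 15 genes of this machinery, 10 were higher in CGR8, 3 in NIH/3T3 and 2 were not called, beside 82.1% of all tested genes called. Tet1, which oxidises methylcytosine, had 643, 415 and 642 CPM in CGR8 and 2.19, 3.24 and 1.88 CPM in NIH/3T3. Tet3 was on the other side, with a log2 fold change of -3.69. The catalytically inactive cofactor Dnmt3l averaged 211 ± 25.2 CPM in CGR8 against 0.109 ± 0.109 in NIH/3T3, and the de novo methyltransferase Dnmt3b 248.5 ± 9.22 against 21.95 ± 1.55 CPM. The maintenance enzyme Dnmt1 differed by 0.37 on the log2 scale, and its partner Uhrf1 by 1.48.

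Imprinted genes, transcribed from one parental copy, were divided. Of 22 tested, 14 were higher in CGR8, 7 in NIH/3T3 and 1 was not called, beside 44.4% and 37.7% of all tested genes. The noncoding RNA Meg3 had 126, 32.8 and 126 CPM in CGR8 and 0 counts in NIH/3T3; its low value in replicate B recurs for the neighbouring Rian, at 287, 98.1 and 299 CPM. Peg10 and Phlda2, genes of placental growth, averaged 38.6 ± 4.701 and 27.5 ± 4.901 CPM in CGR8 and had 0 counts in NIH/3T3. Gnas, encoding the stimulatory G protein subunit, Slc38a4, an amino acid transporter, and Plagl1, a zinc finger factor, were higher in NIH/3T3, with log2 fold changes of -2.83, -3.06 and -3.13. The growth regulators H19, Igf2 and Dlk1 were too low in both lines to be tested.

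Of 9 X and Y chromosome genes 6 were tested; 4 were higher in CGR8 and 2 in NIH/3T3. The 2 were Jpx and Ftx, noncoding genes near Xist, both of which overlap other genes in the annotation. Ftx had a log2 fold change of -2.41, and Jpx averaged 2.02 ± 0.392 CPM in NIH/3T3 and gave 2 counts in the 3 CGR8 libraries, a ratio of 79.1 (21.5 to 659). The Y-linked genes Eif2s3y, Ddx3y and Uty averaged 74.99 ± 3.78, 45.6 ± 8.78 and 23.1 ± 4.33 CPM in CGR8 and had 0 counts in NIH/3T3. Xist, the RNA that coats the inactive X chromosome, averaged 0.0539 ± 0.0663 CPM in NIH/3T3 and 0.397 ± 0.135 CPM in CGR8, and was not tested. Xist overlaps its antisense gene Tsix, and how counting used strand is not given in the sources used here.

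Cell cycle regulators were called in both directions, some with large differences. Of 28 tested, 12 were higher in CGR8, 14 in NIH/3T3 and 2 were not called, with a median of -0.45. Among all tested genes 44.4% were higher in CGR8 and 37.7% in NIH/3T3. Cyclin D2 (Ccnd2) averaged 161 ± 12.8 CPM in NIH/3T3 and 5.32 ± 0.681 CPM in CGR8, while cyclin E1 (Ccne1), which drives entry into S phase, was 1.71 higher in CGR8 on the log2 scale. Cyclin B2 (Ccnb2) had 0.598, 0.512 and 0.605 CPM in NIH/3T3 and 122, 133 and 115 CPM in CGR8, whereas Ccnb1 averaged 179.6 ± 5.62 and 378 ± 25.7 CPM. The Cdkn2a gene, which encodes the inhibitors p16 and p19ARF, had 0 counts in NIH/3T3 and 19.14, 17.9 and 16.4 CPM in CGR8, at least 437-fold higher, and the adjacent Cdkn2b was also at 0 counts in NIH/3T3. Mtap, on the other side of Cdkn2a, was transcribed in both lines and was higher in NIH/3T3, with a log2 fold change of -2.27. Trp53 was 1.36 higher in CGR8 on the log2 scale, while its targets Cdkn1a and Mdm2 had log2 fold changes of -1.62 and -1.21.

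The MYC paralogues were on opposite sides. Myc averaged 267 ± 23.3 CPM in NIH/3T3 and 64.2 ± 0.846 CPM in CGR8, and Mycn 0.0474 ± 0.04997 and 139 ± 5.86 CPM. Of 12 genes of the MYC network 5 were higher in each line and 2 were not called, beside 82.1% of all tested genes called. The log2 fold change was 2.00 for Mga, a MAX partner, and -4.42 for the antagonist Mxd4.

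Polycomb complexes place repressive histone marks. All 20 genes were called, 14 higher in CGR8 and 6 in NIH/3T3. Of all tested genes, 82.1% were called, 44.4% higher in CGR8 and 37.7% in NIH/3T3. The core subunits of PRC2, Ezh2, Eed and Suz12, differed by 0.89, 2.44 and 0.46 on the log2 scale, and Suz12 was not called without NIH/3T3 replicate C. The PRC2 partners Epop and Jarid2 averaged 278 ± 40.6 and 275 ± 31.2 CPM in CGR8 and 0 and 33.4 ± 0.291 CPM in NIH/3T3. Among PRC1 genes, Cbx7 averaged 201 ± 30.01 CPM in CGR8 against 0.0444 ± 0.0507 in NIH/3T3, while Cbx8 and Bmi1 had log2 fold changes of -3.15 and -2.58.

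Most antigen presentation genes were lower in the stem cells. Of 18 tested genes, 13 were higher in NIH/3T3, 2 in CGR8 and 3 were not called. Beta 2-microglobulin (B2m), the light chain of every MHC class I molecule, had 231, 220.2 and 244 CPM in NIH/3T3 and 5.63, 6.87 and 5.78 CPM in CGR8. The class I heavy chain gene H2-D1 differed by -5.92 on the log2 scale and the peptide transporter Tap1 by -3.89; class I genes are near-identical copies, so their counts may be split among them. Interferon response genes went both ways, with 8 of 21 tested higher in CGR8, 11 in NIH/3T3 and 2 not called. The shares of all tested genes were 44.4% and 37.7%, with 82.1% called. The RNA sensor Ddx58 (RIG-I) and the antiviral synthetase Oas1a were 4.71 and 8.05 higher in CGR8 on the log2 scale, while the DNA sensor Cgas and the translation inhibitor Ifit2 averaged 43.1 ± 2.86 and 40.5 ± 5.76 CPM in NIH/3T3 and 2.69 ± 0.835 and 1.57 ± 0.225 CPM in CGR8.

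Glycolysis turns glucose into pyruvate and lactate, and many of its steps have isoforms. Of 27 genes of glycolysis and glucose uptake, 11 were higher in CGR8, 13 in NIH/3T3 and 3 were not called. The shares of all tested genes were 44.4% higher in CGR8 and 37.7% in NIH/3T3. The list had a median of -0.01 whose sign changed under some settings. The neuronal-type glucose transporter Slc2a3 had 792, 872 and 812 CPM in CGR8 and 3 counts in NIH/3T3, a ratio of 20099.8 (6877 to 97468), while the common transporter Slc2a1 had a log2 fold change of -0.88. The lactate dehydrogenase subunits went in opposite directions, with log2 fold changes of 2.80 for Ldhb and -1.09 for Ldha. Several of these enzymes, such as Gapdh, Pgk1 and Ldha, have many processed pseudogenes, which makes their counts uncertain.

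Some genes of threonine and glycine breakdown were high in CGR8. Tdh, which mouse stem cells need to turn threonine into glycine, averaged 785 ± 119 CPM in CGR8 against 1 count in NIH/3T3, and Gldc and Amt, of the glycine cleavage system, averaged 252 ± 7.43 and 152 ± 17.97 CPM against 0.283 ± 0.0631 and 1.01 ± 0.1500 CPM. In the whole list of serine, threonine and one-carbon genes, 13 of 21 tested were higher in CGR8, 5 in NIH/3T3 and 3 were not called. Phgdh, the entry enzyme of serine synthesis, was higher in NIH/3T3, with a log2 fold change of -1.38.

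Sterol synthesis genes leaned towards CGR8 with modest sizes. Of 25 genes, 20 were higher in CGR8 and 5 in NIH/3T3, with a median log2 fold change of 1.31 and 3 at least 8-fold apart. Hmgcs1 and Mvd, enzymes of the mevalonate pathway, averaged 214 ± 15.2 and 82.03 ± 10.7 CPM in CGR8 and 63.3 ± 7.65 and 9.19 ± 1.52 CPM in NIH/3T3. Cyp51 and Sqle, enzymes of the same pathway, went the other way, with log2 fold changes of -1.65 and -0.38.

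Of 20 tested caveolar, endocytic and surface genes, 19 were higher in NIH/3T3, 15 of them by at least 8-fold. Caveolin 1 (Cav1), the coat protein of caveolae, had 496, 439 and 437 CPM in NIH/3T3 and 0, 0.0808 and 0.0422 CPM in CGR8. Annexin A2 (Anxa2) averaged 2228 ± 147 and 8.34 ± 1.19 CPM, and galectin 1 (Lgals1) 3292 ± 296 and 43.04 ± 8.25 CPM. Cd24a, a mucin-like surface protein, was the single member higher in CGR8, with 0 counts in NIH/3T3 and at least 1788-fold more in CGR8.

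Among 22 tested RNA-binding regulators and translation paralogues, 13 were higher in CGR8, 8 in NIH/3T3 and 1 was not called. The shares of all tested genes were 44.4% higher in CGR8 and 37.7% in NIH/3T3. Hmga2, an architectural chromatin protein and let-7 target, averaged 815 ± 35.2 CPM in NIH/3T3 and 32.3 ± 3.42 CPM in CGR8, although Lin28a was on the other side. The splicing regulators Mbnl1 and Celf2 had log2 fold changes of -4.94 and -6.01; Mbnl proteins are known to favour the exon choices of differentiated cells. Epithelial splicing regulator Esrp1 averaged 6.52 ± 0.405 CPM in CGR8 and 0.364 ± 0.0341 CPM in NIH/3T3.

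At the other end of the scale, 2763 tested genes were not called. The called genes of at least 100 CPM with the smallest differences were Acaca, Kif2c, Nbr1, Mcm4, Nmd3 and Pfdn1. The replicative helicase subunit Mcm4, for example, averaged 486 ± 12.9 CPM in NIH/3T3 and 428 ± 8.89 CPM in CGR8, a log2 fold change of -0.18, and each of the 6 lost its call in at least 8 of the alternative settings. Genes named above that overlap another annotated gene have uncertain counts where counting ignored strand; among them are Axin2, Bmp4, Celf2, Cgas, Cyp51, Dnmt3l, Esrp1, Fn1, Fosl1, Gnas, Hmga2, Lox, Meg3, Nid2, Otx2, Pou5f1, Rian, Tap1, Tdh, Thbs1, Tnc, Vcl, Wnt5a and Yap1.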

How the data were processed

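Gene counts were deposited by the authors as whole numbers, 1 column a library; the submitters' processing notes name STAR, DESeq2 and GRCm39 without roles or versions, per the labels, and the counting tool and its use of strand are not given in the sources used here. Columns were assigned by the names in the labels. Symbols were taken from GENCODE M21 by identifier without version, which matched 51880 of 57186 identifiers (90.7%). From the counts, CPM was computed per library as scaled by TMM, and the lines were compared with edgeR 4.0.16 in R 4.3.3 (filterByExpr at its minimum count, 10, and total, 15, quasi-likelihood F test, Benjamini-Hochberg adjustment over all 15401 genes tested, calls under 0.05) on the 6 libraries at 0 h. The standard error is the size of the log2 fold change divided by the square root of F. The procedure was tested on simulated data made from these libraries over 14902 genes. It recovered 77.3% of 97 genes changed 2-fold and 98.0% of 99 changed 4-fold. Of its calls 8.51% were false, above the level of 0.05. Far fewer genes were changed there than the 12638 called in the data, so these shares do not carry over to those calls.

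The members and the 34 gene lists were chosen with earlier results of these data known. The genes named are key members fixed in each list, and up to 4 called members in each direction with the largest fold change and at least 5 CPM. Added to these were the first 10 in each direction of the ranking of named genes described above, and the 6 called genes with the smallest fold change. Anxa2, Brdt, Ccnb1, Cdh5, Dcn, Des, Dppa4, Eed, Fap, Gapdh, Jpx, Suz12, Tex101, Vcl and the HOX genes other than Hoxc13 and Hoxd8 fall outside this rule and were named after their values were seen. Alternatives were other scaling factors, DESeq2 1.42.0, other filters on low counts, a fit of all 30 libraries, a block for replicate letters, and leaving out single libraries. Replicate letters did not pair the lines: deviations of same-lettered libraries correlated at 0.018, -0.138 and -0.186. A few list members are not reported here by name.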

Additional observations from a re-analysis of the deposited data

How the results depend on the processing

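The 12638 called genes became 14225 with DESeq2, 13883 with all 30 libraries in the fit and 12410 to 13723 with 1 library left out, the highest without CGR8 replicate B. The counts at least 2-fold and 8-fold apart were 10231 and 5836 with DESeq2, 8563 to 8873 and 4265 to 4521 with 1 library left out, and 4841 and 1749 when a mean of at least 5 CPM was required, where fewer genes were tested. Without a filter 6524 genes were called and at least 8-fold apart. The share of called genes higher in CGR8 was 54.1%, and it was 55.05% without a filter, 52.05% at 5 CPM or more, 55.56% with DESeq2 and 53.55% to 55.06% with 1 library left out. Among genes at least 2-fold and 8-fold apart the share was 53.8% and 59.8%, and at 5 CPM or more 48.4% and 47.3%. Other scaling moved the median of all genes by 0.014 and 0.025 (log2). With the replicate letter as a block, although the letters did not pair the lines, 12131 genes were called, 8328 and 4104 at least 2-fold and 8-fold apart, and 54.2% of the called genes were higher in CGR8. Of 662 genes named or listed, 28 lost and 11 gained a call in at least 1 setting, and 1 changed direction: Eno1, at 0.01 and not called in the main comparison, -0.16 and called without CGR8 replicate B, and -0.16 to 0.103 over all libraries left out in turn. Signs of list medians changed for extraembryonic and neural genes (-1.25 to 8.91), glycolysis genes (-0.16 to 0.06) and interferon response genes (-0.26 to 0.12), and the causes were not tested. Genes with few counts in both lines, such as most not tested, are limited by depth.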

Other observations

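The genes in this section were named after their values were seen. Several widely transcribed genes had few or no counts in NIH/3T3. Crtap, a subunit of the collagen prolyl 3-hydroxylase complex, had 0 counts in NIH/3T3 and 98.5, 119 and 99.3 CPM in CGR8, at least 2572-fold higher, while its partners P3h1 and Ppib averaged 125 ± 3.06 and 88.1 ± 4.34 CPM in NIH/3T3 and 37.2 ± 2.24 and 80.6 ± 11.6 CPM in CGR8. A line rich in collagen transcripts thus showed no count of this subunit in any of its 3 libraries. E2f6, a repressor of germline genes, had 0, 0 and 0.0336 CPM in NIH/3T3 and 48.7, 49.5 and 49.2 CPM in CGR8, and L3mbtl2, a protein of the same complex, averaged 64.9 ± 6.94 and 204 ± 6.56 CPM. The small heat shock protein Hspb1 and the brain-type creatine kinase Ckb averaged 0.0254 ± 0.0225 and 0.0224 ± 0.0388 CPM in NIH/3T3 against 274 ± 64.8 and 583 ± 110.4 CPM in CGR8.

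Some genes better known from other tissues were high in one of the lines. Afp, alpha-fetoprotein of fetal liver and yolk sac, had 86.5, 84.7 and 90.7 CPM in NIH/3T3 and averaged 0.0351 ± 0.0327 CPM in CGR8. The water channel Aqp1, the cartilage factor Sox9 and the inducible prostaglandin synthase Ptgs2 averaged 518 ± 20.9, 242 ± 9.58 and 554 ± 67.8 CPM in NIH/3T3 and 0.103 ± 0.0865, 0.176 ± 0.141 and 0.341 ± 0.0565 CPM in CGR8. In the opposite direction, the neuronal gene Stmn2 and the hypothalamic hormone gene Trh averaged 345 ± 29.9 and 362 ± 36.6 CPM in CGR8 and 0.0396 ± 0.04296 and 0.0142 ± 0.0246 CPM in NIH/3T3.

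Some runs of neighbouring genes lay on the same side, others did not, and how many runs chance gives was not tested. In gene order of GRCm38, Apobec1, Gdf3, Dppa3, Nanog and Slc2a3 formed a run of 5 tested protein-coding genes at least 8-fold higher in CGR8 on chromosome 6, and the next gene, Foxj2, had a log2 fold change of -2.54. Cdkn2a, Cdkn2b, Elavl2, Gm12666 and Tusc1 formed another, beside Mtap, Klhl9, Hacd4 and Focad, which were higher in NIH/3T3. A run of 9 genes towards NIH/3T3 on chromosome 5 went from Afp through Cxcl5, Ppbp and Cxcl1 to Ereg and Btc, and runs of 7 and 6 lay in the HOXA and HOXB clusters. Among chromosomes, the median log2 fold change of protein-coding genes was 0.83 on chromosome 8 (713 genes, 0.76 to 0.85 over the settings run). It was 0.59 on chromosome 17 and -0.42 on chromosome 15. Over the 12997 tested protein-coding genes on the numbered chromosomes and X, the median was 0.13. On chromosome 8, 64.1% of the protein-coding genes were higher in CGR8 and 24.96% in NIH/3T3. Over all 15401 tested genes, which include other gene types, the shares were 44.4% and 37.7%. Copy number was not measured in these data.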
